A study of Drosophila melanogaster with 6 samples.

Results

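The cytosolic ribosomal protein genes of Drosophila were examined for binding of Dwg, a zinc finger protein known as an insulator factor. A gene was taken as a member when the annotation classed it as protein-coding and its symbol began with RpL or RpS followed by a number, or with RpLP and a number. This rule gave 92 of the 13945 protein-coding genes on the 6 chromosome arms, with 38 genes for the small subunit (RpS), 50 for the large subunit (RpL) and 4 for the P stalk of the large subunit (RpLP). It also took in 5 genes whose symbols end in -like. The rule used symbols alone and no measured value.

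Binding was measured by chromatin immunoprecipitation and sequencing in cells of the embryonic Drosophila line S2R+ that carried a Flag-Dwg transgene. The anti-Flag immunoprecipitation and the IgG control antibody were each sequenced in 2 libraries, as was input chromatin, and all 6 libraries came from the same kind of cells. The antibody entry of both input libraries names dwg1 although their titles read input, and the titles were followed. Peaks of the Flag-Dwg libraries were deposited in 2 lists of summits, 1 called against the IgG control and 1 called against input. A summit is the 1 bp position at which the signal of a peak is highest, and its score is −log10 of the q-value of the peak caller. The list against IgG held 10950 summits (median score 12.9, highest 905), and the one against input held 12971 (median 20.9, highest 2450). Neither list has a value per library, so the depth is unknown and no replicate error can be given for any summit. Both lists rest on the same Flag-Dwg libraries and were not treated as replicates, and scores were compared only within a list. The promoter that drove the Flag-Dwg transgene in these cells is not given in the sources used here, and no anti-Flag libraries from cells without Flag-Dwg were analysed. All values below are from the list against IgG unless input is named.

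Ribosomal proteins are needed in matched amounts, since each ribosome holds the same set of them around its ribosomal RNAs. In flies their genes are short and strongly transcribed, and many start in a run of pyrimidines called the TCT initiator, which works with the TBP-related factor Trf2 in place of TBP. The zinc finger protein M1BP, the DRE-binding factor Dref and the Myc and Max pair, which recognizes E-boxes, are known regulators of such genes.

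A Flag-Dwg summit lay in the gene or within 1000 bp of it at 79 of the 92 ribosomal protein genes, or 85.9% (95% Wilson interval 77.3 to 91.6%). Over all protein-coding genes this share was 52.1%. A summit within 250 bp of an annotated start of the gene itself, called near the start from here on, was present at 57 of the 92 genes, or 62.0% (51.7 to 71.2%), beside 32.5% of all protein-coding genes. With input as the control, the gene or its flanks held a summit at 80 of the 92 genes (87.0%) beside 55.5% of all genes, and 60 (65.2%) had a summit near the start beside 34.9%. Intervals cover counting error only and treat genes as independent, which neighboring genes are not. Members and all genes had a median of 1 annotated start each.

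The ribosomal protein genes had summits near the start at every score level examined. At a score of 20 or more, 34 of the 92 genes (37.0%) had such a summit beside 17.6% of all genes. At a score of 100 or more there were 9 genes (9.78%, interval 5.23 to 17.6%) beside 5.03%, and here the lower bound for the members lay close to the share of all genes. Of the 58 distinct summits near a member's start, 14 were among the 1000 highest of the list, or 24.1% (interval 15.0 to 36.5%). Of the 4421 distinct summits near the start of any protein-coding gene 715 were, or 16.2% (15.1 to 17.3%), which lies inside that interval, and the 1000 highest make up 9.13% of all summits. The median score of the summit nearest the start was 25.3 (interval of the median 18.6 to 47.5, n = 57) against 21.6 (20.4 to 22.7) over all genes with such a summit, so that the intervals overlapped.

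**Figure D1:**
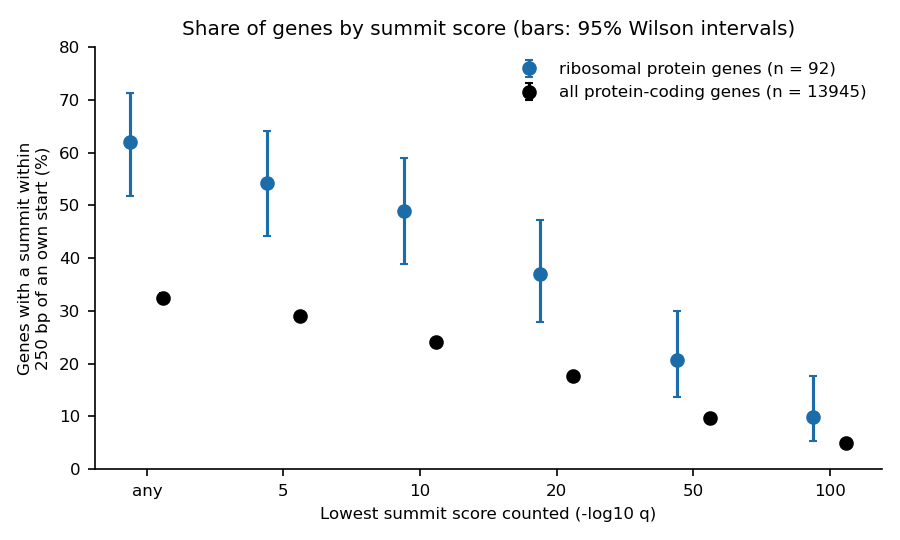
Percentage of genes with a Flag-Dwg summit within 250 bp of an own start (y axis) as the lowest score counted is raised (x axis), for the 92 ribosomal protein genes and all 13945 protein-coding genes; points are shares and bars are 95% Wilson intervals. The share of the ribosomal protein genes went from 62.0% for any summit to 9.78% at a score of 100, and that of all genes from 32.5% to 5.03%.

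The summits near the start were placed close to it, with a median just upstream. The nearest summit had a median signed distance of −18 bp (quartiles −41 and 66, n = 57), where negative values are upstream, and the median over all genes was 17 bp. It lay upstream at 35 of the 57 genes (61.4%, interval 48.4 to 72.9%), against 42.8% of all genes with a summit near the start. With only the 5′ end of each gene as its start, 29 of 53 lay upstream (54.7%, 41.5 to 67.3%), with a median of −6 bp. Over all 79 genes with a summit at any distance, the median turned from −6 to 15 bp. Within the last 75 bp before the start there were 32 of the 57 (56.1%, 43.3 to 68.2%) against 29.1%. A further group sat 75 to 200 bp downstream, with 13 of 57 members (22.8%) and 32.8% of all genes. The median distance in the list against input was also −18 bp (n = 60).

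**Figure D2:**
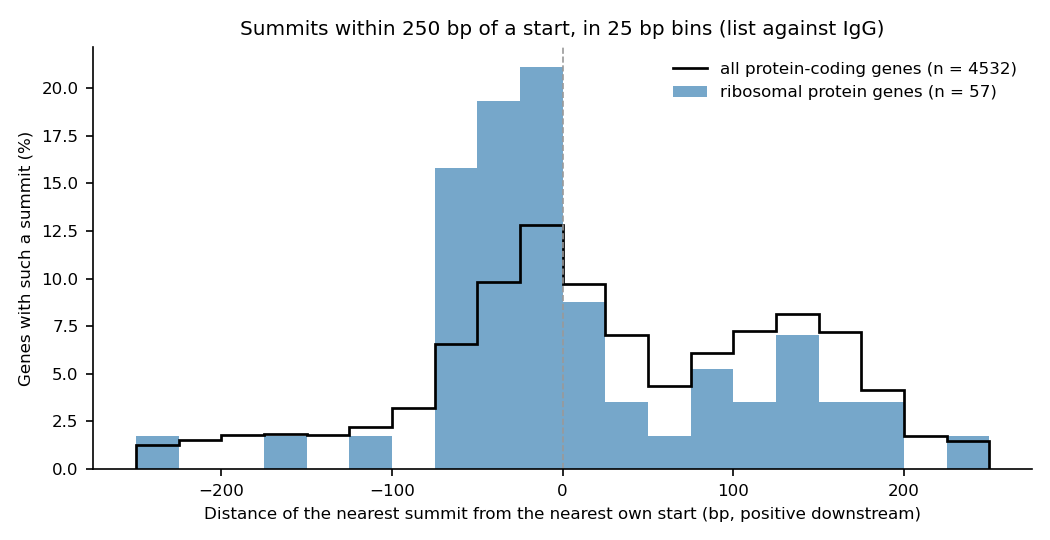
Distance in bp from the nearest own start to the nearest summit (x axis, positive downstream, bins of 25 bp) against the percentage of genes with a summit within 250 bp (y axis), for 57 ribosomal protein genes (bars) and 4532 protein-coding genes (line). The bars are highest in the 3 bins just before the start, which hold 32 of the 57 genes.

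The genes of mitochondrial ribosomal proteins, whose products build the separate ribosome inside mitochondria, served as a comparison of similar function. A summit lay near the start at 42 of these 73 genes (57.5%, interval 46.1 to 68.2%), a share whose interval overlapped that of the cytosolic genes. The positions were farther apart than the intervals of their medians, and no test was made of them. At the mitochondrial set the nearest summit had a median distance of 81 bp (interval 25 to 118), beside −18 bp (−29 to 9) at the cytosolic set, and it lay upstream at 12 of 42 genes (28.6%, 17.2 to 43.6%). The score of the nearest summit had a median of 12.2 (8.79 to 19.0) at the mitochondrial set, and 25.3 (18.6 to 47.5) at the cytosolic set, so that these intervals overlapped.

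The sequence around the start is shown for the 5 genes with the highest scores near the start among members on chromosomes X, 2L, 3L, 3R and 4 that had at most 30 transcribed bases in the 100 bases shown. Each run goes from 80 bases before the start that is nearest to the summit to 20 bases from it, on the strand of the gene in the dm6 assembly (NCBI copy). Capitals mark the DRE (TATCGATA on either strand), the Motif 1 core (GGTCACAC) and the E-box (CACGTG) anywhere in the run, and the TCT initiator (CTTT after a C or T) where its C is within the first 20 bases. They are given to show the letters at and around the summits.
RpL37-1: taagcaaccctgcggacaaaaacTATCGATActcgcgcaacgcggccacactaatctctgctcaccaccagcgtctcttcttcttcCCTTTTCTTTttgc
RpL7-like: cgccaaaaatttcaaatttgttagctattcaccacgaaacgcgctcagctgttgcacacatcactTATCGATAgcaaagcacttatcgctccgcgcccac
RpS5a: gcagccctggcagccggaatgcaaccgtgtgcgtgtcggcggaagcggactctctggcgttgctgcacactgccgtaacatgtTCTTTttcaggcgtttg
RpS3: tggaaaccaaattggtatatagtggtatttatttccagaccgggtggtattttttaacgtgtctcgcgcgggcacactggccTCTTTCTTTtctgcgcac
RpS30: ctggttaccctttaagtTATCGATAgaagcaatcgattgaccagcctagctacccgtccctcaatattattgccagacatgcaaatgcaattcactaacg

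The RpL37-1 run covers chrX:15139348-15139447 on the minus strand, and its summit lay at −70 bp, beside a DRE that begins at base −57. The RpL7-like run is chr2L:12056246-12056345 on the plus strand, with the summit at −41 bp and a DRE from base −15. RpS5a (chrX:17148245-17148344, minus strand) had its summit at −51 bp, where none of the searched letters stood, and a TCT initiator with its C at base 5. The run of RpS3 is chr3R:23358732-23358831 on the plus strand, with the summit at −21 bp and TCT initiators at bases 4 and 8. At RpS30 (chr3R:20850436-20850535, plus strand) the summit lay at 5 bp and a DRE at base −63. The 5 runs thus shared no searched motif at a fixed distance from the summit.

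For contrast, the same window is given for 4 of the 9 genes that had no summit in either list, around the start of their canonical transcript.
RpS27A: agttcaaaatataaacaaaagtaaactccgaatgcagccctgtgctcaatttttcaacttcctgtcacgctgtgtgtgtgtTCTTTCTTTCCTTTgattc
RpL34a: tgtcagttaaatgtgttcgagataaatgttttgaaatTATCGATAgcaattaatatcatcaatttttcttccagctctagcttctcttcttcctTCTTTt
RpL10Aa: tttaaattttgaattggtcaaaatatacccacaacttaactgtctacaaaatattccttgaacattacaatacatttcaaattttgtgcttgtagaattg
RpS10a: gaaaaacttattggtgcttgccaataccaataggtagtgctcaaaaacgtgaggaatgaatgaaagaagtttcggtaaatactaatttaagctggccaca

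RpS27A (chr2L:10408272-10408371, plus strand), which encodes a ribosomal protein fused to ubiquitin, carried TCT initiators at bases 3, 7 and 12. RpL34a (chr3R:26059248-26059347, minus strand) held both a DRE from base −43 and a TCT initiator at base 16. RpL10Aa (chr3R:15037286-15037385, plus strand) and RpS10a (chr3R:27652680-27652779, plus strand) held none of the searched letters. Genes without a summit therefore included promoters with and without these motifs, and the other genes without a summit are not shown.

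Counted over all members, the searched letters were common at the ribosomal protein promoters. In the window from 250 bp before to 50 bp after the canonical start, the DRE was found on either strand at 28 of 92 genes (30.4%), beside 8.94% of all protein-coding genes. The Motif 1 core, which M1BP recognizes, was found at 13 (14.1%) beside 7.54%, and the E-box at 11 (12.0%) beside 4.26%. A TCT initiator with its C in the first 20 bases stood at 61 genes (66.3%) beside 4.70%, with the C at a median base of 6. With every annotated start searched, it was found at 80 of the 92 (87.0%) beside 6.43% of all genes. The window of 20 bases was chosen after the data had been seen. With the C at the canonical start itself, as first planned, the TCT initiator was found at 2 of the 92 (2.17%). A Motif 1 core ends in the letters that begin an E-box, so the same bases can be part of both.

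Members with and without a summit near the start were compared for these letters. The DRE was in 21 of the 57 members with a summit near the start (36.8%, interval 25.5 to 49.8%) and in 7 of the 35 without (20%, 10 to 35.9%). The Motif 1 core was in 10 of 57 (17.5%) and 3 of 35 (8.57%), and the E-box in 8 of 57 (14.0%) and 3 of 35 (8.57%). The TCT initiator at the canonical start was in 40 of 57 (70.2%, 57.3 to 80.5%) and 21 of 35 (60%, 43.6 to 74.4%). Each of these pairs of intervals overlapped. With every annotated start searched, as the call near the start itself does, the TCT initiator was in 55 of 57 members with a summit near the start (96.5%, 88.1 to 99.0%) and in 25 of 35 without (71.4%, 54.9 to 83.7%), and here the intervals did not overlap. More than 1 annotated start, which gives both searches more windows, was present in 31 of the 57 (54.4%) and 13 of the 35 (37.1%), and its part in this difference was not tested. Members with neither a TCT initiator nor a summit near the start included RpL10Aa, RpL22-like, RpLP0-like, RpS10a, RpS19b and RpS28-like. These are copies or relatives of other members. RpL24-like and RpS15Ab, of the same kind, lacked the initiator and had a summit near the start. The part of copies and relatives in the difference was not tested. Other genes with a TCT initiator at the canonical start had a summit near the start in 182 of 595 cases (30.6%, 27.0 to 34.4%), and those with one at any annotated start in 303 of 817 (37.1%, 33.8 to 40.5%), beside 32.5% of all genes.

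Around the summits themselves, within 50 bp on either side, the DRE was present at 7 of the 58 distinct summits near member starts (12.1%, interval 5.97 to 22.9%) and at 1.74% of the 4421 such summits of all genes. The Motif 1 core was present at 9 of 58 (15.5%, 8.38 to 26.9%) against 5.25%, and the E-box at 6 of 58 (10.3%, 4.83 to 20.8%) against 2.33%. This window was chosen after the data had been seen. These motifs are also more common at ribosomal protein promoters as such, and the part of that in the shares was not tested.

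In the small subunit, 35 of the 38 genes had a summit in the gene or flanks and 25 (65.8%, interval 49.9 to 78.8%) had one near the start, with a median score of 34.7 there and a median distance of −18 bp. The highest summits near a start were at RpS18 and RpS16. RpS18 (FBgn0010411, chromosome 2R, 20263979 to 20264848, plus strand) had a summit of score 266 at −63 bp, upstream of the gene, and a score of 590 against input at the same distance. RpS16 (FBgn0034743, chromosome 2R, 22605745 to 22607995, plus strand) had a summit of score 237 at −48 bp from its nearest start and a score of 577 against input. That position is inside the 5′ UTR of a longer transcript of the same gene.

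RpS5a, which lines the exit of the mRNA channel and hosts 14 small nucleolar RNA genes, scored 201 at −51 bp (592 against input). RpS3, which lines the entry of that channel, scored 172 at −21 bp (402 against input). Both genes had no other protein-coding start within 500 bp of the summit, Chchd2 being 686 bp away and Sec13 2228 bp away. RpS30, made as a fusion with a ubiquitin-like protein, scored 137 at 5 bp in the 5′ UTR, and RpS29 scored 123 at −226 bp. RpS21 followed with 99.6 at −4 bp and RpS13 with 92.5 at 132 bp, in an intron.

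Some small subunit genes had their highest summit nearer to a neighbor. RpS20 (FBgn0019936, chromosome 3R, 20822181 to 20823356, plus strand), whose protein is part of the subunit head, had the highest score of all members, 550, and 1670 against input. This summit lay at −302 bp from the RpS20 start and 31 bp from the start of CG17271, transcribed the other way, and none lay within 250 bp of the start of RpS20. RpS9 had a summit of score 299 that was 1709 bp downstream of its start and 13 bp from the start of CG3408, and at its own start a summit of 23.5 at 66 bp. RpS25 had 270 at 1717 bp, 31 bp from the start of ZnT86D, and 47.5 at −49 bp. In these genes the highest score is thus that of a summit nearer to another gene.

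RpS6, the ribosomal substrate of S6 kinase, had a single summit of 82.9 in its coding sequence at 460 bp (167 against input) and none near the start. The lowest values were at RpS10b, with 3.04 at 48 bp, RpS28b, with 4.59 as its highest and 2.37 at 146 bp, RpS14a, with 6.17 at −615 bp, and RpS2, with 6.45 at 1965 bp. At RpS14a and RpS2 the summit was nearer to Dhdds and Bka than to the ribosomal protein gene. RpS10a and RpS27A had no summit in either list. RpS26, whose protein contacts mRNA at the exit channel, had none against IgG and 1 of 13.9 at 3 bp against input.

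In the large subunit, 41 of the 50 genes had a summit in the gene or flanks and 29 (58.0%, interval 44.2 to 70.6%) had one near the start, with a median score of 20.4 there and a median distance of −21 bp. The intervals of the small and large subunit overlapped for the share near the start and for the median score (16.4 to 92.5 and 14.5 to 37.8). RpL37-1 (FBgn0030616, chromosome X, 15137870 to 15139367, minus strand) was highest, with a single summit of 236 at −70 bp, rank 239 of the list, and 571 against input. The nearest other protein-coding start, that of drd, was 13684 bp away. RpL7-like (FBgn0032404, chromosome 2L, 12056326 to 12058251, plus strand), a relative of human RPL7L1, scored 213 at −41 bp, with the start of CG34164 63 bp from the summit.

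RpL24 (95.2 at −37 bp), RpL27A (94.5 at −10 bp) and RpL9 (86.5 at −25 bp) came next, each with the highest summit of the gene at its own start. RpL40, which like RpS27A is made as a ubiquitin fusion, scored 46.2 at −6 bp, and the ubiquitin fusion genes thus differed in having a summit. RpL32, also called Rp49 and the study's reference transcript in quantitative PCR, had 27.0 at 49 bp in its 5′ UTR and 75 at 50 bp against input.

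Large subunit genes, 54.3% of the members, were 6 of the 10 with the lowest scores and 7 of the 9 with no summit in either list. The lowest highest scores were 1.69 at RpL10Ab, 2.78 at RpL23, 3.02 at RpL23A, 3.07 at RpL34b, 3.24 at RpL24-like and 4.06 at RpL15. RpL23A borders the exit of the nascent chain and RpL23 faces the small subunit, and their summits lay at 227 and 190 bp in an intron. Against input, the only summit of RpL23A was instead 28.1 at −89 bp, upstream of the gene. No summit in either list was found at RpL10Aa, RpL11, RpL22-like, RpL34a, RpL37-2, RpL37A and RpL38. RpL11 and RpL5 carry the 5S ribosomal RNA into the ribosome, and RpL5 had only 1 summit, against input, of 3.90 at 1683 bp. RpL30 had 1 summit against input alone, 6.44 at 18 bp.

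The P stalk recruits elongation factors to the large subunit. RpLP0, the base of the stalk (FBgn0000100, chromosome 3L, 22075867 to 22077487, plus strand), scored 192 at −23 bp from its second annotated start, 202 bp downstream of its canonical start and inside the 5′ UTR of the longer transcript. RpLP2 scored 70.0 at −6 bp. RpLP1 had 42.6 at 24 bp and a higher summit of 142 at 1346 bp, 152 bp from the start of CG11885. The stalk proteins proper thus all had a summit within 25 bp of a start. RpLP0-like, a relative of the human assembly factor MRTO4, had none against IgG and 1 of 103 at −397 bp against input.

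**Figure D3:**
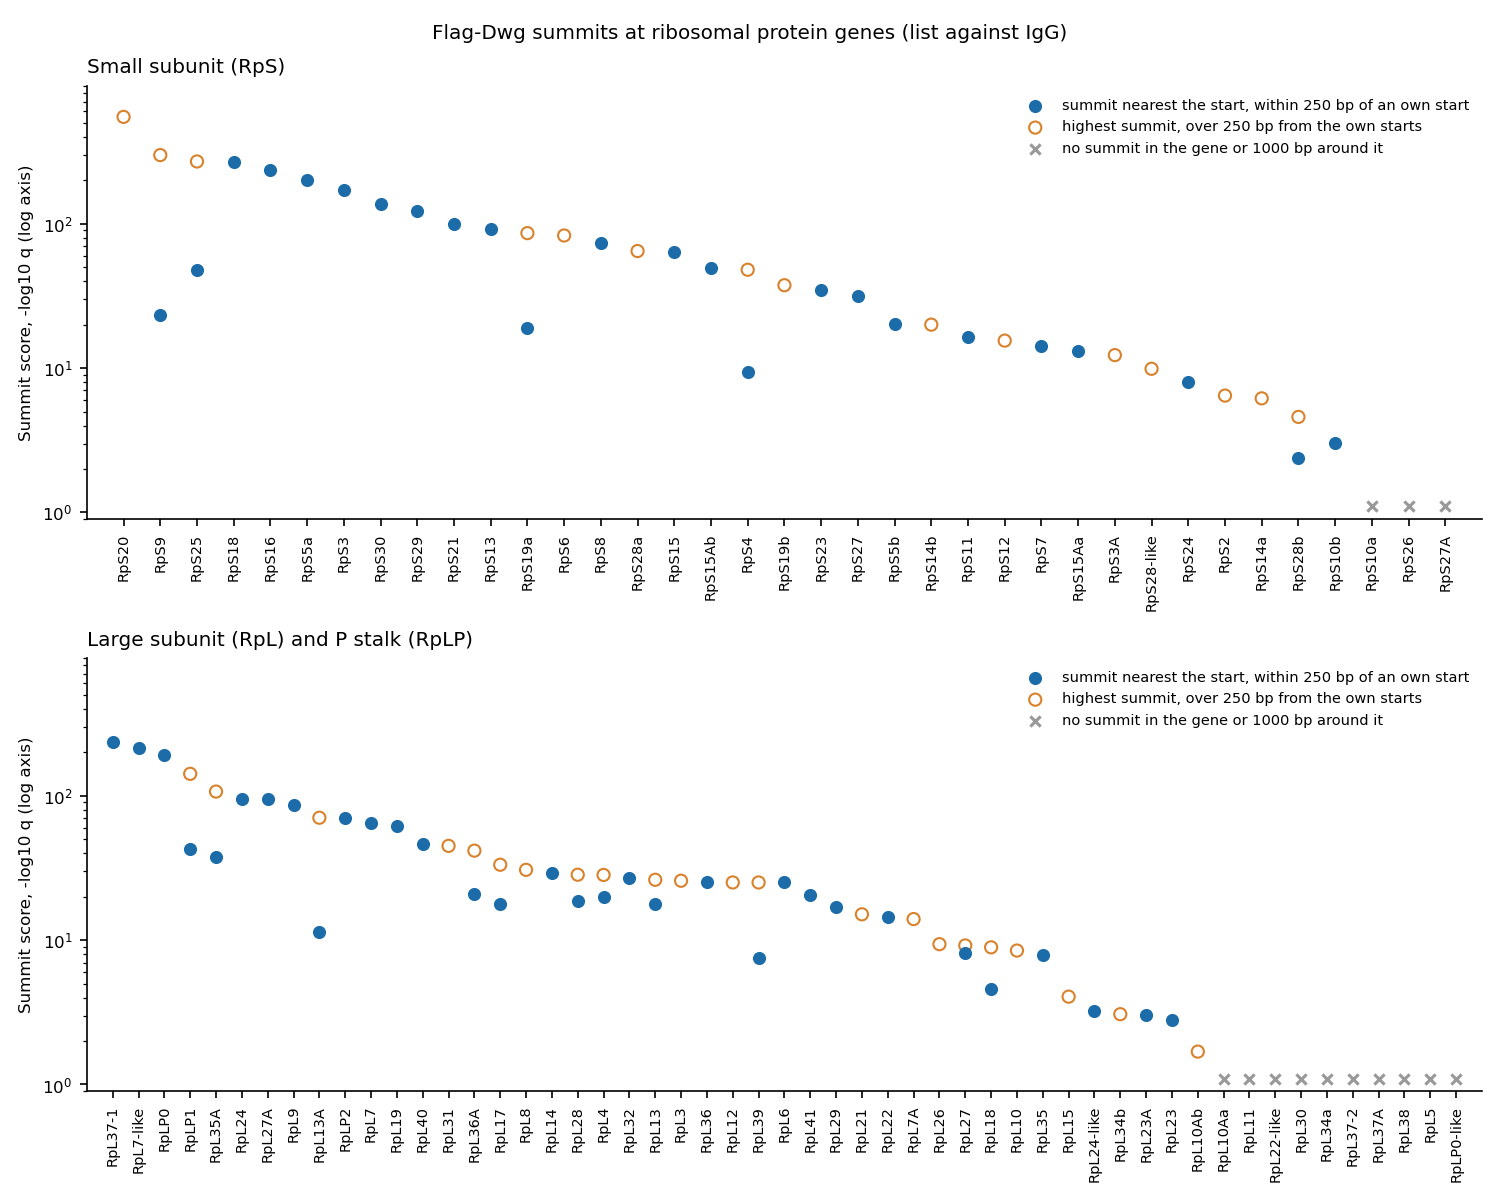
Score of the summits, −log10 q on a log axis, at 90 of the 92 ribosomal protein genes in the list against IgG, with genes ordered by their highest score; filled points are the summit nearest the start where it is within 250 bp, open points the highest summit where that is over 250 bp away, and crosses genes with no summit. Filled points run from 2.37 at RpS28b to 266 at RpS18, and 13 genes have a cross.

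Close neighbors were common. At 55 of the 92 genes (59.8%, interval 49.6 to 69.2%) a protein-coding gene on the other strand started within 1000 bp upstream, beside 35.2% of all genes. Of these 55, 38 (69.1%, 56.0 to 79.7%) had a summit near the start, and of the 37 without such a neighbor 19 (51.4%, 35.9 to 66.6%). The same shares over all genes were 49.2% and 23.4%. At both kinds of promoter the ribosomal protein genes were thus above all genes, and their own 2 intervals overlapped. Ribosomal protein genes were also short, with a median length of 1320 bp beside 2170 bp. The parts of neighbors and of gene length in the shares were not tested.

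The highest summit of a member was often not at the member's start. At 39 of the 79 genes with a summit it lay over 250 bp from the gene's own starts, and at 29 of these 39 it was nearer to the start of another protein-coding gene, at a median distance of 109 bp from it. Of the 39 genes, 17 also had a summit near their own start. The same counts over all genes are not given here, so they are not a trait of the members. Counted by the nearest start, the highest summit belonged to the member at 49 of 79 genes (62.0%, interval 51 to 71.9%) beside 57.5% of all genes with a summit, which lies inside that interval. With only those summits near a start that had no other protein-coding start within 500 bp, 32 of the 57 genes were left (56.1%, interval 43.3 to 68.2%), against 62.4% over all genes. Their median score was 20.6 and their median distance −8 bp.

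RpL13 and Dref shared a promoter region of this kind. The gene of the DRE-binding factor starts on the other strand upstream of RpL13. Between the starts lay a summit of 17.7, at −60 bp from that of RpL13 and nearer to that of Dref, 24 bp away. A higher summit of 26.2 at −457 bp from the RpL13 start lay inside Dref, 373 bp from the Dref start. RpL12 and RpL39 were neighbors within the set, and the same summit of 25.1 was counted for both. It lay in the 3′ UTR of RpL12 and 667 bp downstream of the start of RpL39. In all, 156 distinct summits were found at members, and 2 of them were counted for 2 members each.

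Ribosomal protein genes with the same symbol stem differed in their summits. By symbol there were 13 families with 27 members, of which 14 (51.9%, interval 34 to 69.3%) had a summit near the start, against 43 of the 65 members without a copy (66.2%, 54.0 to 76.5%). Every member had one in 4 families, some had one in 6 and none had one in 3. In the RpL7, RpL24 and RpLP0 families the other member is a relative of an assembly factor or of RPL7L1 and not a copy of the same protein. Without these, 9 of 21 members in 10 families (42.9%, 24.5 to 63.5%) had a summit near the start, with every copy in 2 families. Of the 5 genes that had no summit in either list and belong to a family, RpL22-like, a copy known from the germ line, was set beside RpL22 with 14.5 at −64 bp. RpL37-2 was set beside RpL37-1 with 236, and RpS10a beside RpS10b with 3.04. In the RpL10A and RpL34 families the other copy had 1 low summit far from its start, 1.69 at 1185 bp in RpL10Ab and 3.07 at 1123 bp in RpL34b.

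Where both members of a family had a summit near the start, their scores differed within a list. RpS5a had 201 and RpS5b, the copy known from the ovary, had 20.2 at −40 bp, which was called against IgG alone. RpL24 had 95.2 and RpL24-like, a relative of the human assembly factor RSL24D1, had 3.24 at 98 bp. The order was reversed in the RpL7 family, where RpL7-like had 213 and RpL7 had 64.6 at 15 bp. In the RpS15A family RpS15Ab had 49.4 at −154 bp, 118 bp from the start of Lsm10, and RpS15Aa had 13.2 at −18 bp. RpS15Ab was the only member with 50-mers around its start that recur in the genome, 7.52% of them.

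The remaining families had their summits away from at least 1 copy's start. RpLP0 had 192 near its start, and RpLP0-like had none in this list. RpS19a had 19.1 at 77 bp and a higher summit of 86.1 nearer to Rok, and RpS19b, a germ line copy, had 37.5 at −540 bp and 158 bp from CG5854. RpS14a and RpS14b stand next to each other on chromosome X, and neither had a summit near the start against IgG. Against input a summit of 31.1 lay at −68 bp of RpS14b, in the space between the copies. Of the 3 RpS28 genes, RpS28b had 2.37 at 146 bp, RpS28a had 64.7 at 624 bp, 197 bp from the start of Mgat2, with 33.0 at −356 bp, and RpS28-like 9.89 at 702 bp.

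**Figure D4:**
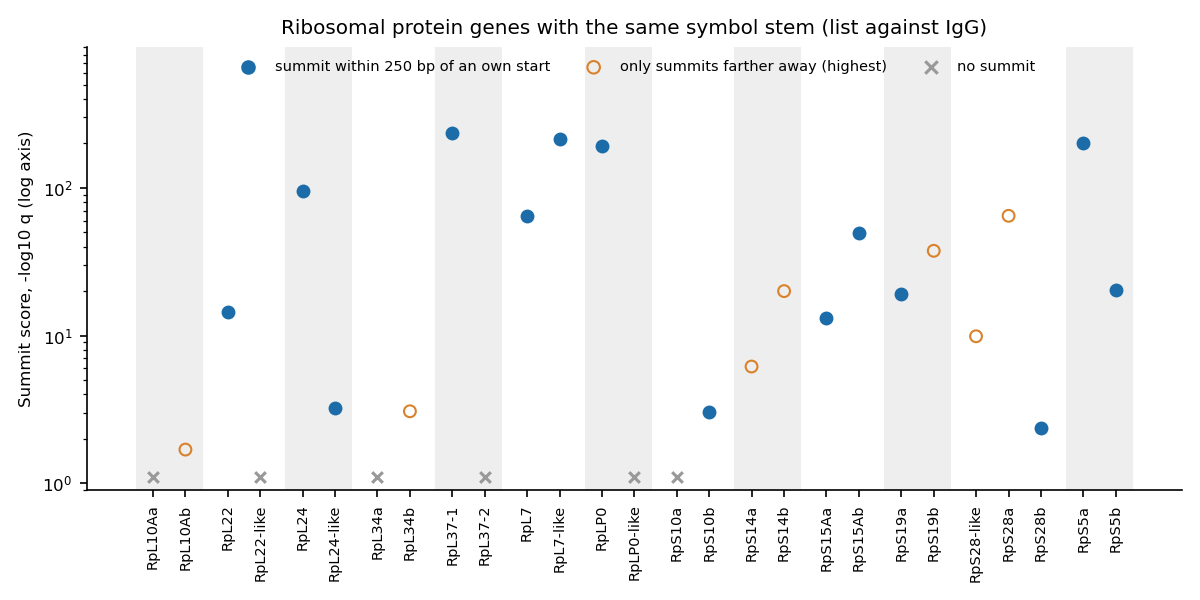
Summit score, −log10 q on a log axis, for the 27 members of 13 families of ribosomal protein genes with the same symbol stem in the list against IgG; filled points are the summit nearest a start within 250 bp, open points the highest summit of genes with only summits farther away, and crosses genes with none. In 4 families every member has a filled point, and in 3 none has.

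The 2 lists gave largely the same summits at these genes. Of the 156 distinct summits against IgG, 129 (82.7%, interval 76.0 to 87.8%) had a summit against input within 100 bp, and over all summits the share was 86.9%. A summit near the start was present in both lists at 52 of the 92 genes, against IgG alone at 5 (among them RpL13, RpL29, RpL39 and RpS5b) and against input alone at 8 (RpL26, RpL30, RpL7A, RpL8, RpS12, RpS14b, RpS26 and RpS3A). At 27 genes it was present in neither. The same counts over all genes are not given here, so whether the members differ in them was not tested. The 3 genes with any summit against IgG alone were RpL10Ab, RpL29, with 17.1 at −59 bp, and RpS5b. Those against input alone were RpL30, RpL5, RpLP0-like and RpS26.

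The genes are spread over all chromosome arms, and the shares by arm had overlapping intervals. A summit near the start was present at 11 of 19 members on 2L, 13 of 21 on 2R, 8 of 14 on 3L, 15 of 23 on 3R and 10 of 14 on X. RpS3A, the only member on chromosome 4, had none near its start against IgG and a summit of 12.3 at 839 bp in the coding sequence. Small nucleolar RNAs, which guide modification of ribosomal RNA, were annotated within 28 members, 74 genes in all. Of these hosts 17 (60.7%) had a summit near the start, and of the other 64 members 40 (62.5%).

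Other genes of the translation machinery were counted in lists of their own. The ribosomal proteins whose symbols are outside the rule, sta (small subunit protein SA) and Rack1, both had a summit near the start, of 62.4 at 33 bp and 13.0 at −12 bp, and the highest at Rack1 was 78.0 nearer to mts. All 7 genes of elongation factors had a summit in the gene or flanks (52.1% of all genes), and 4 had one near the start (32.5%). The highest among them were 359 at eEF2, 168 at eEF1alpha2 and 139 at eEF1beta. The first of these lay 4739 bp from the start of eEF2 and 147 bp from that of CG2225, and eEF2 had 13.1 at 29 bp. The second lay 3771 bp from the start of eEF1alpha2 and 59 bp from that of Tbca, while the summit of eEF1beta was at 40 bp.

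Of 13 ribosome assembly factors, 12 had a summit in the gene or flanks and 10 (76.9%, interval 49.7 to 91.8%) near the start. The shares of all genes were 52.1% and 32.5%. The nucleostemin relative Ns1 had 354 at −51 bp and the snoRNP core protein Nop56 had 147 at −65 bp, but these summits were nearer to other starts, 6 bp from that of mRpS11 and 28 bp from that of mats. Non3 had 73.4 at −347 bp, 307 bp from the start of mTerf5. Of the 10 regulators of ribosomal protein synthesis all had a summit and 8 had one near the start, beside the same shares of all genes. Several of these regulators are long genes, and length was not allowed for. M1BP had 443 at 88 bp, Trf2 had 374 at −60 bp, and Mnt, the antagonist of Myc, had 243 at −51 bp of its nearest start as its highest. Shares over lists this short have wide intervals, and those of the assembly factors overlapped that of the ribosomal protein genes.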

How the data were processed

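Chromatin of S2R+ cells with Flag-Dwg was precipitated with anti-Flag (2 libraries) or IgG control antibody (2 libraries), and input chromatin was sequenced in 2 libraries. The authors trimmed reads with Trim Galore 0.6.4, aligned them locally to dm6 with Bowtie2 2.3.5.1, retained uniquely mapped reads by means of SAMtools 1.6 and ran MACS2 2.2.6 on read pairs. HOMER 4.11 is also named in the submitters' processing notes. The score in the deposited summit lists is the authors' −log10 of the q-value, whose lowest values of 1.31 and 1.30 lie at a q-value of 0.05. Whether replicates were pooled is not given in the sources used here. The depth per library is unknown from the lists, which limits the precision of every score.

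Genes and transcript starts came from Ensembl release 115 and sequence from NCBI, both of the dm6 assembly, with 1-based positions. A summit counted for a gene when it lay inside the gene or within 1000 bp, and as near the start within 250 bp of any annotated start. Summits of both lists within 100 bp counted as shared. Distances are from the nearest own start, positive downstream. Shares carry 95% Wilson intervals and medians binomial intervals. No test was made. The placement of summits was tested on simulated data, with a single summit planted at or upstream of the 5′ end of each gene drawn. Downstream distances, several summits per gene and the assignment to neighboring genes were not covered by that test. Promoters were searched from 250 bp before to 50 bp after the canonical start on both strands, the TCT initiator on the gene's strand only. Members and lists were chosen with earlier results of these data known. One entry was removed from the list of assembly factors because its symbol belongs to an unrelated gene.

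Named are the 10 members with the highest and the 10 with the lowest scores against IgG, members with no summit in 1 or both lists, every family of the same symbol stem, the 5 highest of those whose highest summit lay over 250 bp away (1 of them is not reported here), and the 3 highest of each list of translation genes. Other names, such as RpL32, RpS6, RpL13 and RpL40, were chosen after their values were seen. Alternatives were the list against input, higher scores, shared summits only, other flanks and windows, only the 5′ end of the gene as start, and members without those ending in -like. The software was SciPy 1.17.1, pandas 2.3.3, NumPy 2.4.6 and Python 3.11.15. Gene activity was not analysed here.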

Additional observations from a re-analysis of the deposited data

How the results depend on the processing

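No paired analysis was possible because the summit positions and scores used here carry no value per library, and for the same reason no library could be left out. Of the alternatives set first, 29 kept their value (a count within 1.5 times, a median within its interval) and 5 moved. Counting only scores of at least 20 left 34 members with a summit near the start in place of 57, 31 in place of 49 with the highest summit at the own start, and a median highest score of 64.7 in place of 30.7, since fewer summits enter. Without flanks 45 members (48.9%) had a summit in place of 79, and this share was not compared with that of all genes. The list against input, whose scores are on their own scale, gave a median highest score of 77.3. With only the 5′ end of the gene as start, the median signed distance over all 79 genes with a summit was 15 bp in place of −6 bp. This is inside the interval of −23 to 66 bp, so over this set the side depends on which starts are used. For summits within 250 bp the median stayed upstream, at −6 bp (n = 53) in place of −18 bp.

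The 6 alternatives chosen after seeing the data moved. Scores of at least 50 and 100 left 19 and 9 members with a summit near the start, and leaving out summits with another protein-coding start within 500 bp left 32. The TCT initiator was at the annotated start itself in 2 members, within 20 bases of it in 61 and within 20 bases of any annotated start in 80. Without the RpL7, RpL24 and RpLP0 families, 9 members of families had a summit near the start in place of 14. With no depth, no replicate values and no anti-Flag precipitation from cells without Flag-Dwg, neither the error of a score nor binding that does not come from Flag-Dwg could be measured.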
